A study of Homo sapiens with 8 samples.

Results

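8-oxoguanine (8-oxoG) is the main lesion that reactive oxygen species leave on guanine, and 8 genes that deal with it in DNA and in the nucleotide pool were followed: OGG1, MUTYH, NEIL1, NEIL2, APEX1, NUDT1, NUDT5 and NUDT18. They were taken as a list of gene symbols, mapped to gene identifiers through the annotation, and are 8 of the 58735 genes in the files. Each of the 8 passed the filter on low counts, with which 18242 genes were tested.

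By GENCODE 44 on GRCh38, OGG1 (ENSG00000114026) lies at chr3:9749944-9788219 on the plus strand, APEX1 (ENSG00000100823) at chr14:20455191-20457772 on the plus strand, NEIL1 (ENSG00000140398) at chr15:75346955-75357115 on the plus strand and NUDT1 (ENSG00000106268) at chr7:2242226-2251146 on the plus strand. MUTYH (ENSG00000132781) lies at chr1:45329163-45340893 on the minus strand and NUDT5 (ENSG00000165609) at chr10:12165330-12195891 on the minus strand. NEIL2 (ENSG00000154328, plus strand) and NUDT18 (ENSG00000275074, minus strand) both lie on chromosome 8.

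Base excision repair takes a damaged base out of DNA and rebuilds the strand. OGG1 cuts 8-oxoG out where it faces cytosine, MUTYH removes the adenine that was wrongly placed opposite 8-oxoG, NEIL1 and NEIL2 remove other oxidized bases, and APEX1 cuts the strand at the abasic site that remains. The nucleotide pool is cleaned by the Nudix hydrolases: NUDT1 (MTH1) hydrolyses oxidized purine triphosphates such as 8-oxo-dGTP and 8-oxo-GTP, while NUDT5 and NUDT18 act on the diphosphates, NUDT5 also on ADP-ribose. Since the assay pulls down RNA with an antibody against the same lesion, the transcripts of these genes can be read both as expressed genes and as targets of the pull-down.

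BEAS-2B is an established line of human bronchial epithelial cells, here exposed at the air-liquid interface. Cultures were exposed for 2 h to clean air (CA) or to air with 1 ppm formaldehyde (FA) and left to recover for 6 h. RNA depleted of ribosomal RNA was sequenced as it was (input, IN) or after immunoprecipitation with the antibody against 8-oxoG (IP), which gave the groups CA_IN, FA_IN, CA_IP and FA_IP with 2 libraries each, stated to be biological replicates. The cells are 1 immortalized line, which limits them as a model of the airway, and the antibody clone named in the sample descriptions differs from that in the extraction protocol.

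The input libraries held 26.2 to 45.1 M expected counts and the IP libraries 16.9 to 23.7 M. The expected count is the RSEM estimate of the reads from each transcript, summed here by gene and scaled to a common library total (CPM) with edgeR's TMM factors. In CA_IN the 7 epithelial markers checked lay between 9.66 and 392.0 TPM, with the keratin KRT17 highest. Of the mesenchymal markers VIM was at 229.0 and 173.0 TPM and CDH2, COL1A1 and PDGFRB were between 0.16 and 4.05 TPM. The blood marker CD14 was at 1.09 and 1.42 TPM, and PTPRC, HBB, PECAM1 and VWF were between 0.0 and 0.04 TPM. In bulk RNA a change in the number of cells of a kind and a change in the RNA per cell cannot be told apart.

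The 8 genes fell into 3 tiers in clean air, with the hydrolases at both ends. Per length, in TPM (counts divided by transcript length and scaled to a common total) of the input, NUDT5 (31.5 and 32.2 TPM in the 2 CA_IN libraries), APEX1 (30.3 and 28.6 TPM) and NUDT1 (22.2 and 19.8 TPM) were the most abundant. They lay above 90.8% to 94.1% of the genes tested. The DNA glycosylases were an order lower: OGG1 at 3.17 and 3.26 TPM, MUTYH at 2.86 and 2.63 TPM, NEIL2 at 1.25 and 1.17 TPM and NEIL1 at 1.18 and 1.02 TPM. NUDT18 was the lowest with 0.64 and 0.62 TPM, above 35.8% of the genes tested. Between neighbours in this order, the levels of NEIL2 and NEIL1 overlapped between the libraries, while the others did not overlap in CA_IN. In FA_IN the order at the top changed between libraries, since APEX1 was at 28.2 and 37.2 TPM and NUDT5 at 31.4 and 34.6 TPM.

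**Figure D1:**
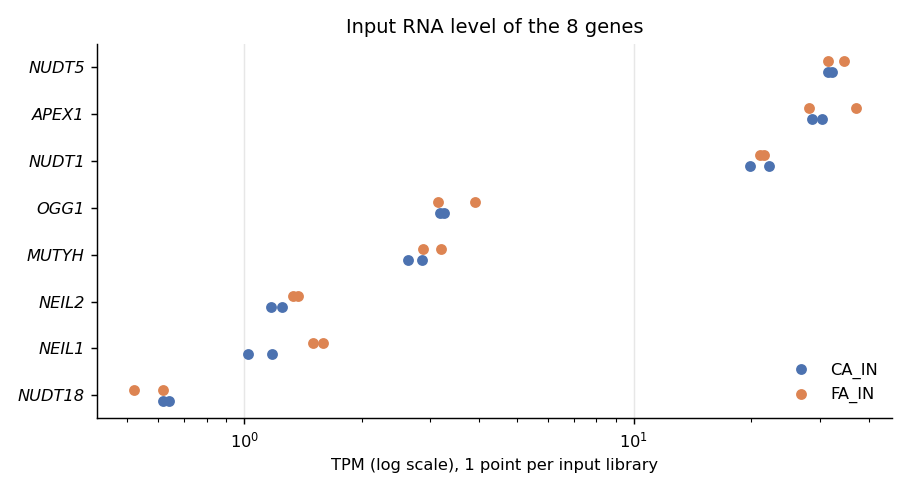
TPM of the 8 genes in the input libraries on a log scale, 1 point per library, blue for CA_IN and orange for FA_IN. NUDT5, APEX1 and NUDT1 lie at 19.8 TPM or more, the 4 glycosylases between 1.02 and 3.91 TPM, and NUDT18 at 0.64 TPM or less.

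The depth behind these levels differs between the genes. The expected counts over the 8 libraries ran from 1383.6 to 4569.8 for NUDT5 and from 1915.0 to 4033.0 for APEX1, but only from 61.0 to 109.0 for NUDT18 and from 91.3 to 198.6 for NEIL1. Exons of 5 of the genes are shared with protein-coding genes on the opposite strand. OGG1 shares 2175 bases with CAMK1 and 356 bases with TADA3, and NEIL1 1832 bases with MAN2C1. MUTYH shares 491 bases with TOE1, NUDT5 382 bases with SEC61A2 and APEX1 92 bases with PIP4P1. Mean counts in CA_IN were 1175.5 for MAN2C1 beside 170.0 for NEIL1, and 596.7 for TOE1 beside 310.0 for MUTYH. They were 503.1 for CAMK1 and 1812.2 for TADA3 beside 634.0 for OGG1. SEC61A2 and PIP4P1 had fewer counts than NUDT5 and APEX1. The RSEM call printed in the study's methods sets no strand option, and without one RSEM counts reads of either strand, so reads from the shared stretches cannot be assigned with certainty.

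Whether formaldehyde changed the expression of these genes was read from FA_IN against CA_IN. None of the 8 passed the test, and the log2 fold changes lay between -0.11 for NUDT18 and 0.28 for NEIL2. OGG1, the glycosylase for 8-oxoG itself, measured 15.8 and 15.9 CPM in CA_IN and 17.6 and 17.6 CPM in FA_IN. The groups did not overlap, but the difference of 0.15 (SE 0.13, 95% interval -0.14 to 0.45) was not called by edgeR (adjusted p = 0.945). MUTYH measured 7.67 and 7.82 CPM against 9.07 and 9.31 CPM, again without overlap, a log2 fold change of 0.25 (interval -0.11 to 0.60). For NUDT1, which keeps oxidized nucleotides out of newly made DNA and RNA, the libraries overlapped, with 28.2 and 25.9 CPM in CA_IN and 31.2 and 26.7 CPM in FA_IN, a log2 fold change of 0.09 (interval -0.18 to 0.36).

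The remaining input differences were of the same size. APEX1 was at 92.9 ± 0.331 CPM in CA_IN and 105.0 ± 9.98 CPM in FA_IN (SD, n = 2), NUDT5 at 106.0 ± 1.08 and 111.0 ± 2.95 CPM, and NUDT18 at 2.51 ± 0.00737 and 2.34 ± 0.401 CPM. NEIL1 had 4.57 and 3.88 CPM in CA_IN and 4.95 and 5.23 CPM in FA_IN, a log2 fold change of 0.27 (interval -0.15 to 0.69). With the effective transcript lengths as offsets this became 0.59 (SE 0.21), with an adjusted p of 0.961 in edgeR. NEIL2 had 6.89 and 6.97 CPM against 9.23 and 7.66 CPM, a log2 fold change of 0.28 (interval -0.07 to 0.64). The intervals were widest for NUDT18 (-0.62 to 0.40) and NEIL1, the genes with the fewest counts.

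In this comparison edgeR called 0 of the 8 genes, with 0 at an unadjusted p under 0.05 and 0 called by DESeq2 on the 8 libraries. The background was as sparse, since 1 of 18242 genes (0.00548%) was called and 611 had an unadjusted p under 0.05. Of the 8 log2 fold changes, 7 were positive, beside 53.4% of those of the genes tested, and their median was 0.16 beside 0.02. For 6 of the 8 genes both FA_IN libraries lay above both CA_IN libraries, as they did for 18.1% of the genes tested. NUDT1 had a log2 fold change of -0.04 without the first FA_IN library and NUDT18 one of 0.04 without the second, so their signs rest on single libraries.

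**Figure D2:**
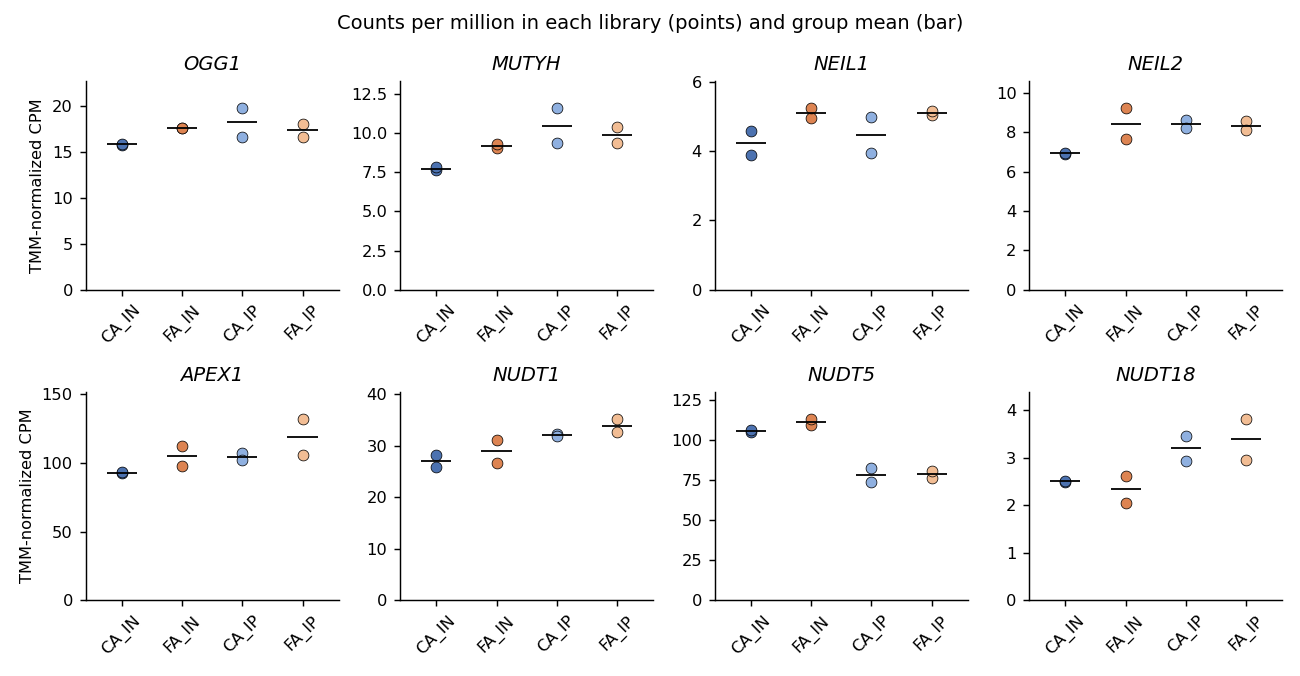
TMM-normalized CPM of each gene in the 8 libraries, 1 point per library, with a bar at the mean of each group and each axis starting at 0. The IP libraries of NUDT5 lie at 74.0 to 82.5 CPM, below its input libraries at 105.0 to 113.0 CPM. Those of NUDT18 lie at 2.94 to 3.82 CPM, above its input libraries at 2.05 to 2.62 CPM, a difference that was not called.

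How the RNA after pull-down differed from the input was read from IP against input within each treatment. The libraries include no control pull-down without this antibody, so binding to the antibody and other binding cannot be told apart. By CPM, NUDT5 was lower in the IP RNA of both treatments, and no other gene of the 8 was called. Mean TPM rose from input to IP for each of the 8 genes in both treatments. How many of the genes tested rose in TPM was not counted, so this rise is not read as particular to the 8 genes. For NUDT5 the mean went from 31.9 to 41.4 TPM in clean air and from 33.0 to 39.3 TPM after formaldehyde. By TPM, NUDT5 lay above 93.7% to 94.2% of the genes tested in the input libraries and above 90.6% to 92.1% in the IP libraries. In clean air NUDT5 measured 105.0 and 106.0 CPM in the input and 74.0 and 82.5 CPM after IP. The log2 fold change was -0.43 (SE 0.09, interval -0.63 to -0.24), or 1.35-fold lower, with an adjusted p of 0.0457 by edgeR's quasi-likelihood test. After formaldehyde it measured 109.0 and 113.0 CPM in the input and 76.5 and 80.4 CPM after IP, a log2 fold change of -0.50 (SE 0.09, interval -0.70 to -0.31), or 1.42-fold lower, with an adjusted p of 0.0249 in edgeR. The input and IP libraries were thus apart in both treatments, and NUDT5 was at the 10.0th percentile of the log2 fold changes of the genes tested in clean air and at the 9.0th after formaldehyde.

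Among the genes tested, edgeR called 349 (1.91%) between CA_IP and CA_IN, 27 higher and 322 lower, and 274 (1.5%) between FA_IP and FA_IN, 6 higher and 268 lower. With library size in place of TMM the median over the genes rose to 0.16 and 0.17 on the log2 scale, and the calls split into 821 higher and 336 lower in clean air and 318 higher and 243 lower after formaldehyde. NUDT5 remained lower under this scaling, by log2 fold changes of -0.29 and -0.33, but was not called (adjusted p = 0.0904 and 0.0758 in edgeR). In clean air its call also rested on each library, since without any 1 of the 8 the adjusted p lay between 0.0724 and 0.285 in edgeR, with log2 fold changes of -0.51 to -0.36. After formaldehyde the adjusted p without 1 library lay between 0.0228 and 0.244 in edgeR, and the call was kept only without either CA_IP library, with log2 fold changes of -0.52 to -0.46.

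MUTYH, the adenine glycosylase, had the largest positive difference in clean air, with 7.67 and 7.82 CPM in the input and 9.38 and 11.6 CPM after IP. Its log2 fold change of 0.44 (SE 0.16, interval 0.08 to 0.79) had an unadjusted p of 0.0229 and an adjusted p of 0.283 in edgeR. After formaldehyde the values were closer, 9.07 and 9.31 CPM in the input and 9.4 and 10.4 CPM after IP, a log2 fold change of 0.11 (interval -0.25 to 0.47). NUDT1 measured 28.2 and 25.9 CPM in CA_IN and 32.2 and 31.8 CPM in CA_IP, and 31.2 and 26.7 CPM in FA_IN and 35.2 and 32.6 CPM in FA_IP. In both treatments the IP libraries of NUDT1 lay above the input libraries, by log2 fold changes of 0.24 (interval -0.03 to 0.51) and 0.23 (interval -0.04 to 0.50).

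OGG1 measured 16.7 and 19.8 CPM in CA_IP, above its input, and 16.7 and 18.1 CPM in FA_IP, where the groups overlapped. The log2 fold changes were 0.21 (interval -0.09 to 0.50) and -0.01 (interval -0.31 to 0.29). NEIL2 had log2 fold changes of 0.28 (interval -0.08 to 0.64) in clean air and -0.01 (interval -0.37 to 0.35) after formaldehyde, and NEIL1 of 0.07 (interval -0.36 to 0.50) in clean air and a fold of 0.998 after formaldehyde. With effective lengths as offsets the latter became a log2 fold change of -0.41 (SE 0.21), with an adjusted p of 0.612 in edgeR. APEX1 differed alike in both treatments, by 0.17 (interval -0.09 to 0.44) and 0.18 (interval -0.08 to 0.45). NUDT18, the least abundant of the 8, went from 2.50 and 2.51 CPM to 3.47 and 2.94 CPM in clean air, and from 2.62 and 2.05 CPM to 3.82 and 2.96 CPM after formaldehyde. Its log2 fold changes were 0.35 (interval -0.15 to 0.86) and 0.54 (interval 0.01 to 1.06), the latter with an unadjusted p of 0.0459 and an adjusted p of 0.532 in edgeR.

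Since input and IP RNA were split from the RNA of 1 exposure, the comparison was also fitted with the RNA pool as a block, by the number in the deposited names. NUDT5 was then called with adjusted p of 7.54e-05 in clean air and 1.38e-05 after formaldehyde in edgeR. In clean air MUTYH (log2 fold change 0.43, SE 0.11, adjusted p = 0.0102 in edgeR) and NUDT1 (0.24, SE 0.08, adjusted p = 0.0348 in edgeR) were called higher as well. The block raised the calls over the genes tested to 17.4% in clean air and 10.1% after formaldehyde, which is the background for these 3 and 1 of the 8 genes. With only the number as a block, MUTYH and NUDT5 were called in clean air, beside 10.6% of the genes tested, and NUDT5 after formaldehyde, beside 5.22%.

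Whether formaldehyde shifted the pull-down was tested as the difference between both log2 fold changes. EdgeR called 0 of the 8 genes (0 at an unadjusted p under 0.05, 0 with DESeq2 on the 8 libraries), and 0 of the genes tested (0.0%, 195 at an unadjusted p under 0.05). For NUDT5 the difference was -0.07 (interval -0.35 to 0.21). The largest ones were -0.32 for MUTYH (interval -0.83 to 0.19), -0.29 for NEIL2 (interval -0.80 to 0.21) and -0.22 for OGG1 (interval -0.64 to 0.20), and for NUDT18 the interval ran from -0.55 to 0.91. With effective lengths as offsets the difference for NEIL1 went from -0.07 to -0.54 (SE 0.30), with an adjusted p of 1.0 in edgeR.

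**Figure D3:**
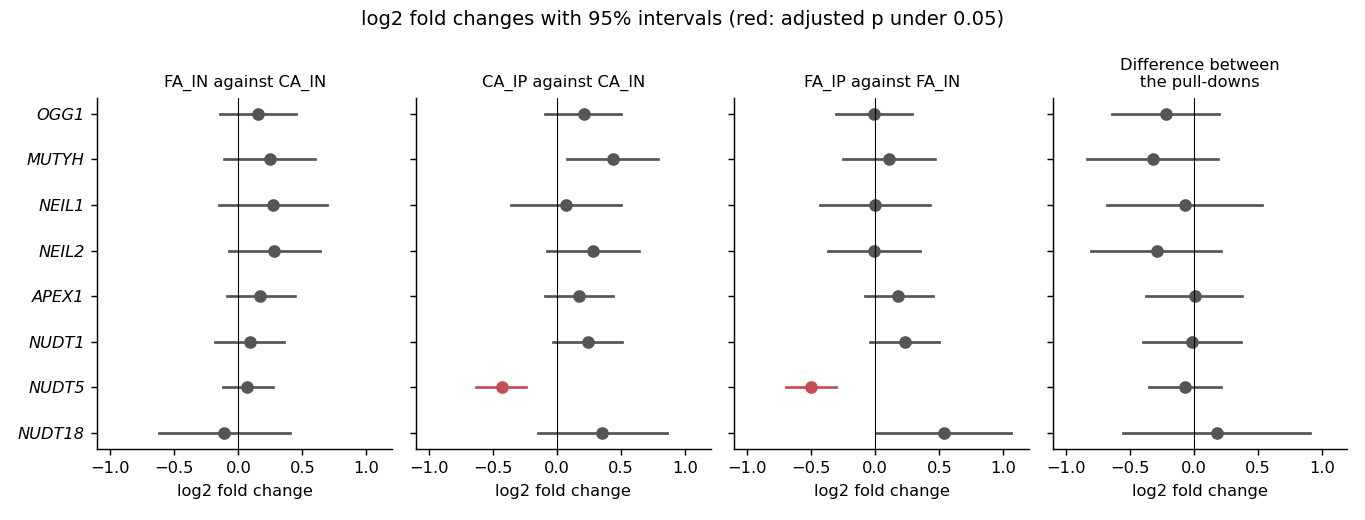
The log2 fold change of each gene with its 95% interval in the 4 comparisons, the last being the FA_IP against FA_IN change minus the CA_IP against CA_IN change. The 2 red intervals, those of NUDT5 in the IP comparisons, passed the test, and the grey ones cross 0 except those of MUTYH in clean air and NUDT18 after formaldehyde.

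The antibody recognizes an oxidized guanine, and the guanine content of the transcripts differs among the 8 genes. Weighted by isoform counts in CA_IN, guanine made up 21.3% of the NUDT5 transcripts (19.0th percentile of the genes tested), 26.4% of APEX1, 28.1% of OGG1, 28.9% of NEIL1, 30.1% of NEIL2, 31.2% of MUTYH, 33.6% of NUDT1 and 34.2% of NUDT18 (98.9th percentile). NUDT5 was thus the gene poorest in guanine, read from the isoforms that hold 66.6% of its counts, since the isoform ENST00000537776 has no sequence in the annotation used. Over 18163 tested genes with a sequence, ordered by guanine content into 5 groups of like size, the median log2 fold change went from -0.16 in the lowest group to 0.28 in the highest in clean air, and from -0.11 to 0.19 after formaldehyde. Across those genes Spearman's rho was 0.549 and 0.414, and across the 8 genes 0.81 and 0.738. Genes are not independent replicates and share the same libraries, and guanine content goes with the total GC content (43.3% in NUDT5, 64.0% in NUDT18), so these values describe the data without a test. Beside their groups, NUDT5 lay below the median (-0.43 against -0.16 and -0.50 against -0.11), while APEX1 (0.17 and 0.18) and OGG1 (0.21 and -0.01) lay in the group with medians of 0.15 in clean air and 0.09 after formaldehyde. The other 5 genes lay in the highest group, with medians of 0.28 and 0.19. NUDT18 (0.35 and 0.54) was above both medians and NEIL1 (0.07 in clean air and a fold of 0.998 after formaldehyde) below both. MUTYH (0.44 and 0.11) was above in clean air only, NUDT1 (0.24 and 0.23) after formaldehyde only, and NEIL2 (0.28 and -0.01) was at the median in clean air and below it after formaldehyde.

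**Figure D4:**
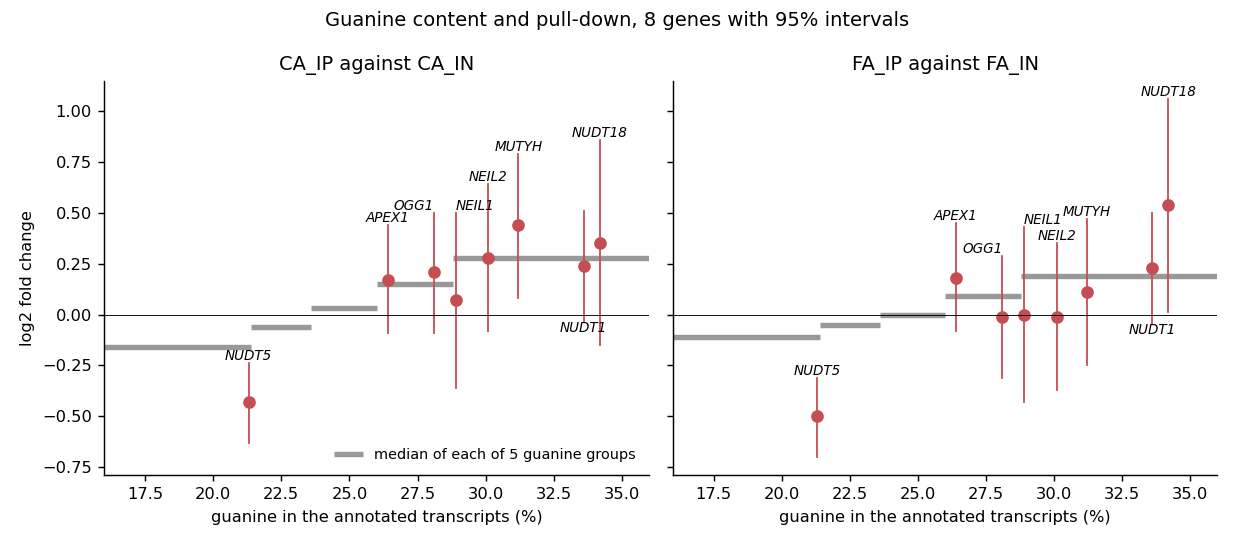
Guanine content of the transcripts (x, percent) against the log2 fold change between IP and input (y) for the 8 genes with 95% intervals, in clean air and after formaldehyde, with grey lines at the median of each of the 5 guanine groups of the genes tested, drawn from 16 to 36% guanine only. NUDT5, at 21.3% guanine, is the only one of the 8 whose interval lies below 0.

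The files list 128 isoforms of the 8 genes, of which 63 were tested, and 19 made up 10% or more of their gene in CA_IN. Most NUDT1 counts belonged to 1 isoform, NUDT1-203, with 76.6% to 84.3% of the gene in the 8 libraries, and most APEX1 counts to APEX1-201, with 61.5% to 69.5%. In the other 6 genes, 2 to 4 isoforms reached 10% of the gene in CA_IN. RSEM divides reads that isoforms share, so the shares are estimates. Replicates could differ widely: NUDT18-201 had 34.9% and 43.7% in CA_IN but 72.2% and 37.9% in FA_IN.

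OGG1 reads were divided chiefly among OGG1-203, OGG1-205 and the retained-intron transcript OGG1-217. OGG1-205 codes for the nuclear alpha form of the enzyme and OGG1-203 for the mitochondrial beta form, which differ in their last exon. Their last 45 coding bases are shown because this end tells the forms apart, with the stop codon in capitals (GENCODE 44, GRCh38, plus strand).
OGG1-203: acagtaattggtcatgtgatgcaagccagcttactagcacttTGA
OGG1-205: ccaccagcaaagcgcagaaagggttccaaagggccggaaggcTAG
The first lies at chr3:9766091-9766135 and the second at chr3:9757106-9757150. The coding sequences, 1275 and 1038 bases long, share their leading 949 bases. OGG1-203 took 32.6% and 30.4% of OGG1 counts in CA_IN and 38.7% and 33.6% in FA_IN, and OGG1-205 took 22.6% and 16.6% in CA_IN and 11.0% and 18.0% in FA_IN. OGG1-203 was thus estimated to hold more counts than OGG1-205 in each input library. Its share in both FA_IN libraries lay above that in both CA_IN libraries, the nearest being 33.6% and 32.6%, while the shares of OGG1-205 overlapped. Reads from the 2175 exon bases shared with CAMK1 cannot be assigned with certainty. Which OGG1 isoforms hold these bases was not examined, which limits the shares. The log2 fold changes in the abundance of the isoforms, 0.35 (SE 0.30) for OGG1-203 and -0.27 (SE 0.41) for OGG1-205, were not called.

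Over the isoforms, edgeR called 0 of the 63 in FA_IN against CA_IN, where 0.0% of the 67873 transcripts tested were called. There 4 isoforms had an unadjusted p under 0.05, and DESeq2 called 0 on the 8 libraries and 1 on the 4 compared. In CA_IP against CA_IN edgeR called 0, beside 0.242% of the transcripts. There 3 isoforms had an unadjusted p under 0.05, and DESeq2 called 2 on the 8 libraries and 0 on the 4 compared. In FA_IP against FA_IN edgeR called 0, beside 0.144%. There 6 isoforms had an unadjusted p under 0.05, and DESeq2 called 1 on the 8 libraries and 2 on the 4 compared. In the difference between the pull-downs edgeR called 0 as well (3 at an unadjusted p under 0.05, 0 with DESeq2 on the 8 libraries), beside 0.0% of the transcripts. How many of the transcripts tested had an unadjusted p under 0.05 was not counted. For the 3 main isoforms of NUDT5 the log2 fold changes between IP and input, in clean air and after formaldehyde, were -0.64 (SE 0.26) and -0.92 (SE 0.26) for NUDT5-202, -0.72 (SE 0.16) and -0.75 (SE 0.16) for ENST00000537776, and -0.29 (SE 0.14) and -0.25 (SE 0.14) for NUDT5-207. DESeq2 on the 8 libraries called ENST00000537776 in both treatments (adjusted p = 0.0143 and 0.0125).

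Among isoforms with 10 counts or more in a library, 3 had counts in both input libraries of 1 treatment and 0.0 in both of the other, and 5 isoforms of MUTYH had counts in only 1 of the 4 input libraries. How often such patterns occur over all transcripts was not counted. The 3 and 5 therefore have no background beside them and are not read as particular to these genes. NEIL2-204 had 81.5 and 45.8 expected counts in CA_IN (27.2% and 18.0% of NEIL2) and 0.0 and 0.0 in FA_IN, at least 15.2-fold lower after formaldehyde when FA_IN is set to 3 counts per library. After IP it had 0.0 and 38.8 counts in clean air and 13.8 and 25.8 after formaldehyde, so its presence varied between libraries of 1 group too. EdgeR gave it an adjusted p of 1.0 in the input, and DESeq2 on the 4 libraries called it (adjusted p = 0.00625). As shares of NEIL2, which do not depend on library depth, NEIL2-201 held 27.1% and 38.5% in CA_IN and 53.5% and 44.5% in FA_IN. NEIL2-203 held 28.4% and 25.8% against 32.3% and 29.2%. The shares of NEIL2-202 and NEIL2-205 overlapped between the groups, and edgeR called none of these isoforms. The floor does not cover how RSEM divides the reads that isoforms share. OGG1-202, named after its values were seen, had 0.0 counts in both CA_IN libraries and 16.6 and 26.1 in FA_IN, at least 9.32-fold higher by the same floor, with 0.0 in the 4 IP libraries and an adjusted p of 1.0 in edgeR. APEX1-212, likewise named after its values were seen, had 30.8 and 6.62 counts in CA_IN (0.8% and 0.2% of APEX1) and 0.0 and 0.0 in FA_IN. By that floor it was 4.34-fold lower against the mean of the CA_IN libraries. These differed widely, so the value is no bound for each library. APEX1-212 had 5.98 to 16.3 counts in the IP libraries and an adjusted p of 1.0 in edgeR for the input.

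Isoform usage, tested by gene with edgeR, was called for 0 of the 8 genes in each of the 3 comparisons, beside 0.392% of 11474 genes in FA_IN against CA_IN, 1.47% in CA_IP against CA_IN and 1.05% in FA_IP against FA_IN. The unadjusted p was under 0.05 for OGG1 and NEIL2 in the input (2 genes), for none in clean air (0 genes) and for the same 2 after formaldehyde, and no other tool was run for usage. How many of the 11474 genes had such a p was not counted. OGG1 came nearest to a call, with adjusted p of 0.285 in the input and 0.0617 between FA_IP and FA_IN, and NEIL2 had 0.384 and 0.367.

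**Figure D5:**
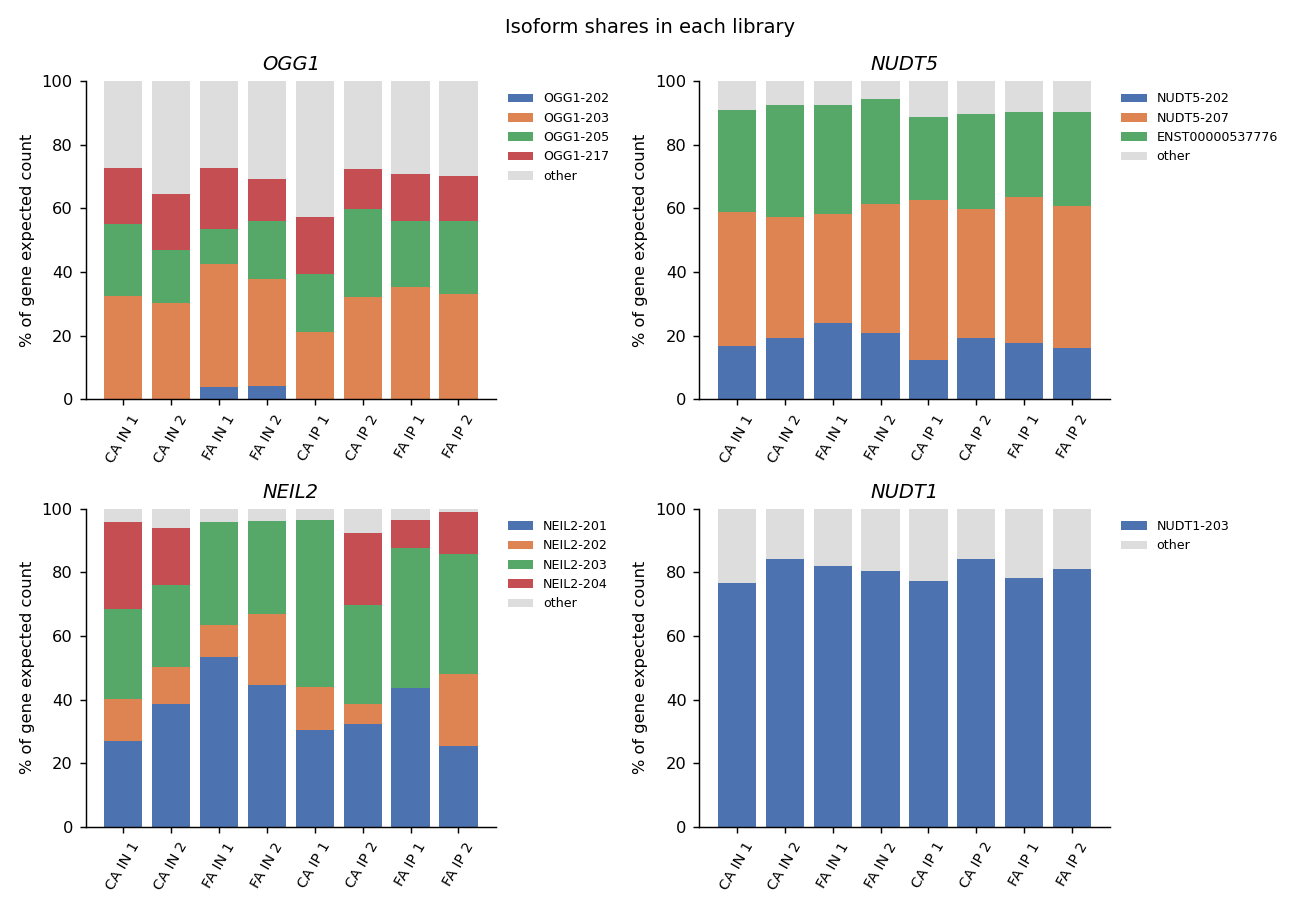
Percent of the expected count of OGG1, NUDT5, NEIL2 and NUDT1 in each library by isoform, with the isoforms not drawn in grey. NEIL2-204 (red) has 27.2% and 18.0% in the CA_IN libraries and none in the FA_IN libraries, OGG1-202 (blue) appears only in FA_IN, and NUDT1-203 keeps 76.6% or more throughout.

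The genes around these 8 in base excision repair and the nucleotide pool were read from a list of 34 that holds other glycosylases, the ligases and scaffold proteins of repair, and the enzymes of dNTP supply. Each was tested, and edgeR called 0 in FA_IN against CA_IN (0 at an unadjusted p under 0.05, 0 with DESeq2 on the 8 libraries). It called 0 in CA_IP against CA_IN (7 at an unadjusted p under 0.05, 1 with DESeq2 on the 8 libraries) and 0 in FA_IP against FA_IN (2 at an unadjusted p under 0.05, 0 with DESeq2 on the 8 libraries), and 0 in the difference between the pull-downs (0 at an unadjusted p under 0.05, 0 with DESeq2 on the 8 libraries). The median log2 fold changes in the input, in clean air and after formaldehyde were 0.06, 0.05 and 0.04, beside 0.02, 0.02 and 0.00 over the genes tested. Of the 18242 genes tested, 2294 had an unadjusted p under 0.05 by edgeR in CA_IP against CA_IN, and 1660 in FA_IP against FA_IN. With the RNA pool block, 10 genes of the list were higher and 1 lower in CA_IP, and 6 were higher and 0 lower in FA_IP, against the background of 17.4% and 10.1% given above. In clean air they were led by LIG1, the replicative DNA ligase (log2 fold change 0.42, SE 0.07), ITPA, which removes deaminated purine nucleotides (0.33, SE 0.07), the flap endonuclease FEN1 (0.27, SE 0.06), the glycosylase NTHL1 (0.44, SE 0.11) and MPG, which removes alkylated bases (0.32, SE 0.08). LIG1, ITPA, FEN1, NTHL1 and MPG were also called after formaldehyde with that block. How the calls of that block over the genes tested split into higher and lower was not counted. The directions in the list therefore have no background beside them.

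The genes whose CPM followed these most closely over the 8 libraries were RNF121 (r = 0.979), NSMCE4A (r = 0.952) and RGS12 (r = 0.948) for OGG1, MFSD10 (r = 0.992), SH3GLB2 (r = 0.991) and ANXA2 (r = 0.99) for NUDT1, and AP2A2 (r = 0.986), PEX10 (r = 0.978) and FLYWCH1 (r = 0.978) for MUTYH. These are the highest of 11236 correlations each, computed on log2 CPM in libraries that differ by fraction, and r was above 0.9 for 23 genes with OGG1, 469 with NUDT1 and 203 with MUTYH.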

How the data were processed

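The authors sequenced the 8 libraries on an Illumina HiSeq, trimmed reads with cutadapt, aligned them to GRCh38 with STAR 2.6.0a and deposited RSEM 1.2.25 tables with the expected count, the TPM and the effective length of each Ensembl 94 transcript, without further normalization. The tables of DESeq2 comparisons that the authors deposited hold their fold changes and p-values and were not used. TPM was used for levels between genes in the input, and is given beside CPM for NUDT5 after IP.

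Expected counts were summed by gene and rounded. The filter kept genes, and likewise transcripts, that reached 10 rounded counts in 2 libraries or more, and these were tested with edgeR 4.0.16 (limma 3.58.1, R 4.3.3; TMM, quasi-likelihood test over the 8 libraries, prior count 0.125, Benjamini-Hochberg adjustment, limit 0.05), and isoform usage with diffSpliceDGE at gene level. The biological coefficient of variation was 0.138 for genes. Intervals are 95% intervals of the fit. With 2 libraries a group, the p-values rest on the spread within the groups, pooled over the 8 libraries and moderated across genes by the fit. The tests were tried on simulated counts. Bounds against 0 set the mean rate of the libraries with counts against 3 counts per library. They hold for that mean and cover counting error only.

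Gene models came from GENCODE 44, which holds 126 of the 128 isoforms, 108 at the length in the files. Sequences came from its transcripts, and none is shown from chromosome 8, which holds NUDT18 and NEIL2. Coding sequences of the genes other than OGG1 are not reported here.

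The 8 genes and the list of 34 were chosen with earlier results of these data known. The text names the 8 genes, isoforms with at least 10% of their gene in CA_IN or past the limit, list genes past the limit (at most 5 a comparison), and the 3 genes most correlated with OGG1, NUDT1 and MUTYH among those with a mean count of at least 100.

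Input and IP RNA of each replicate of a treatment were split from 1 RNA pool. The numbers that pair the libraries, 1 and 3, are in the deposited names, not in the labels. The difference between libraries 1 and 3 correlated across genes between the groups, with r from 0.203 to 0.38. It was 0.38 between CA_IN and CA_IP and 0.246 between FA_IN and FA_IP, beside 0.203 to 0.283 between groups of different treatments. For formaldehyde the RNA pool thus paired the libraries no more closely than the number alone. Alternatives were DESeq2 1.42.0 on 8 or 4 libraries, edgeR on 4 libraries, scaling by library size, a filter at a mean of 50 counts or none, effective length offsets, a prior count of 2, blocks for the number or the RNA pool, the most abundant isoform in place of the gene sum, and each library left out.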

Additional observations from a re-analysis of the deposited data

How the results depend on the processing

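The 8 genes had 0 calls in FA_IN against CA_IN and in the difference between the pull-downs under each alternative run. Between CA_IP and CA_IN the 1 call, NUDT5, became 0 with DESeq2 on 4 libraries, edgeR on 4 libraries, effective length offsets, library size in place of TMM, the most abundant isoform, and each library left out (0 to 0), 2 with the replicate block and 3 with the RNA pool block. Between FA_IP and FA_IN the 1 call became 0 with library size and the most abundant isoform, and 0 to 1 with a library left out: it was kept only without either CA_IP library, and lost without CA_IN replicate 1 (adjusted p = 0.0501 in edgeR), CA_IN replicate 2 (0.075), FA_IN replicate 1 (0.17), FA_IN replicate 2 (0.235), FA_IP replicate 1 (0.244) or FA_IP replicate 2 (0.228). As a gene, NUDT5 was lower under each of the 18 alternatives fitted to gene sums, by log2 fold changes of -0.51 to -0.29 and -0.61 to -0.33, and its most abundant isoform, NUDT5-207, had -0.29 and -0.25. The cause was not tested.

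Isoforms of the 8 genes went from 0 calls to 1 in FA_IN against CA_IN (DESeq2 on 4 libraries, NEIL2-204), to 2 in CA_IP against CA_IN (DESeq2 on 8 libraries, ENST00000537776 and MUTYH-206), and to 2 and 1 in FA_IP against FA_IN (DESeq2 on 4 libraries, NUDT5-202 and ENST00000537776, and on 8 libraries, ENST00000537776). Genes of the list of 34 went from 0 to 1 (DESeq2 on 8 libraries), 11 (RNA pool block), 1 (library size) and 6 (replicate block) in clean air, and to 6 (RNA pool block), 2 (library size) and 1 (replicate block) after formaldehyde. Isoform usage of the 8 genes had 0 calls under each alternative run.

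Over the genes tested, calls ran from 0 to 258 (replicate block) in FA_IN against CA_IN beside 1, from 194 to 3179 (RNA pool block) beside 349 in clean air, from 121 to 1835 (RNA pool block) beside 274 after formaldehyde, and from 0 to 52 (no filter) beside 0 for the difference. The replicate and RNA pool blocks changed no other call of the 8 genes than those of MUTYH and NUDT1.

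Signs turned only for values that were not called. Library size gave 0.16 for OGG1, 0.17 for NEIL1 and 0.16 for NEIL2 in FA_IP against FA_IN, and 0.01 for NUDT1 in the difference; effective length offsets gave 0.03 for NEIL2 in FA_IP against FA_IN, and 0.00 for NUDT1 and -0.03 for APEX1 in the difference; a mean of at least 50 and no filter gave 0.02 and 0.01 for NUDT1 there. With a library left out, the log2 fold changes that turned ran from -0.04 to 0.18 for NUDT1 and -0.30 to 0.04 for NUDT18 in FA_IN against CA_IN, from -0.11 to 0.23 for NEIL1 in CA_IP against CA_IN, and from -0.06 to 0.04 for OGG1, -0.03 to 0.06 for NEIL1 and -0.13 to 0.13 for NEIL2 in FA_IP against FA_IN. In the difference they ran from -0.08 to 0.14 for NUDT1, -0.15 to 0.01 for NUDT5, -0.01 to 0.40 for NUDT18, -0.12 to 0.16 for APEX1 and -0.23 to 0.10 for NEIL1. Depth limits NUDT18 and NEIL1 most, which had the fewest counts.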
